A study of Mus musculus with 27 samples.

Results

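The 8 genes described here encode enzymes of cholesterol synthesis and INSIG1, a protein that holds that pathway back when sterols are plentiful. They are Hmgcs1, Idi1, Fdps, Fdft1, Sqle, Lss, Dhcr7, and Insig1, and they were taken by their symbols from the raw count tables of 2 tissues, which hold the same 22855 genes. All 8 had a row in both tables and all 8 passed the filter on low counts in both. None of the 8 is an uptake receptor, so cholesterol uptake is described through a separate list of genes. The samples were PDGFRα-expressing cardiac fibroblasts, isolated by flow cytometry, and whole hearts from C57Bl/6 mice at 5 ages, which were postnatal day 1, 4 and 14 weeks, and 1 and 1.5 years. No gene was edited and no treatment was given, so the ages are the only groups. Fibroblasts were represented by 3 samples at each of the youngest 2 ages and by 2 at each older age, and whole hearts by 3 samples per age. By the study's methods, the samples of an age came from different animals and the fibroblast sets from different hearts. The paper also states that the hearts sequenced were those that gave the fibroblasts, so samples of the 2 tissues may share animals. The labels name no animal and do not tie a fibroblast sample to a heart. The main comparisons of the tissues treated all samples as independent.

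Animal cells build cholesterol from acetyl-CoA through mevalonate, isoprenoid diphosphates, squalene, and lanosterol. The enzymes are transcribed under SREBP2, a membrane-bound transcription factor that SCAP escorts from the endoplasmic reticulum when sterols are scarce, and INSIG proteins hold SCAP back when sterols are plentiful. HMGCS1 makes HMG-CoA, IDI1 and FDPS build farnesyl diphosphate, FDFT1 and SQLE make and oxidize squalene, LSS closes the sterol rings, and DHCR7 carries out a late reduction to cholesterol. INSIG1 is itself a target of SREBP2.

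Totals were 54615898 to 76758831 counts in fibroblasts and 46091271 to 67984404 in whole hearts. Fibroblast samples carried 18622 to 39214 CPM (counts scaled to the effective library size) of 6 fibroblast markers, against 693 to 1396 CPM in whole hearts, where 8 cardiomyocyte markers summed to 36442 to 86018 CPM. The cardiomyocyte markers summed to 704 to 761 CPM in fibroblasts at postnatal day 1 and to 14.2 to 172 at later ages. The 9 endothelial markers summed to between 834 and 2673 CPM in fibroblasts, and to between 749 and 1477 in whole hearts, so the ranges overlapped. At 14 weeks the sums were 1959 and 2208 CPM in fibroblasts and 877 to 898 in whole hearts. The highest fibroblast sum was that of replicate 3 at 4 weeks, where the lowest of the age was 1094. Proliferation genes summed to 306 to 477 CPM in fibroblasts at postnatal day 1 and to 4.90 to 12.8 from 14 weeks. Xist, expressed from the inactive X chromosome of females, did not exceed 0.570 CPM in any of the 10 samples taken at 14 weeks or 1 year, and Ddx3y, on the Y chromosome, at most 0.397 CPM in the 5 samples of 1.5 years. At postnatal day 1 and 4 weeks both were present in every sample. Sex and age therefore cannot be told apart in comparisons of 1.5 years with 14 weeks or 1 year. The balance of the sexes also differs between postnatal day 1 or 4 weeks and the ages from 14 weeks on. The labels give no sex.

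Promoter letters were read for Hmgcs1, Lss, and Insig1 because these genes carried the called changes with age. Each stretch lies just upstream of the transcription start in RefSeq (GRCm38.p6, plus strand) and ends before the first annotated exon. Capitals mark TCACNCCAC, the core of a sterol regulatory element, and CCAAT, the box bound by NF-Y, on either strand.
Hmgcs1 (chr13:119690101-119690350): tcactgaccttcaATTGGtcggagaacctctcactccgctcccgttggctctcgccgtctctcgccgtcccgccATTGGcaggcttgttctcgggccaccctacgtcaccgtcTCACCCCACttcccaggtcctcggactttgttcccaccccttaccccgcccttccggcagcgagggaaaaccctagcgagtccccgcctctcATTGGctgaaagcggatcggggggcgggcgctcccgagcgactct
Lss (chr10:76531355-76531587): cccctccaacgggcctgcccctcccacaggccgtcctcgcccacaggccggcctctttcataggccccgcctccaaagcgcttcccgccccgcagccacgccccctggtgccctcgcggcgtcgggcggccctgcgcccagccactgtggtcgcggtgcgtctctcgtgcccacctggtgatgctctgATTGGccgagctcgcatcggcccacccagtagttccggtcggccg
Insig1 (chr5:28071162-28071362): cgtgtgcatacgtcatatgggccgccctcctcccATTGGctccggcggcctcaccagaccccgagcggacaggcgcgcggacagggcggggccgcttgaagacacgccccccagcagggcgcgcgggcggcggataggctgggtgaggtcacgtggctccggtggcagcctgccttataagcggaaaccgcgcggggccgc
Only the Hmgcs1 stretch held TCACNCCAC, 137 bases before the start site, together with 3 CCAAT boxes read on the minus strand. The Lss and Insig1 stretches each held 1 CCAAT box. Among the 250 bases upstream of 32851 mouse transcription starts, TCACNCCAC was present in 1.05% and CCAAT in 33.8%, and the 2 motifs share no letters in these matches. Idi1 had 1 such window with 2 CCAAT boxes, and 1 of the 3 Dhcr7 windows held 2. No window read for Idi1, Dhcr7, or the other pathway genes listed below held TCACNCCAC. Its absence therefore does not set Lss and Insig1 apart from the rest of the pathway. The windows of Fdps, Fdft1, and Sqle were not analysed here. These matches describe letters and say nothing of binding.

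Per kilobase of exon, the members differed widely in level. Exon length here is the combined length of all annotated exons of a gene, with overlapping exons counted once. It is called transcript length below and can exceed the length of any single transcript. In cardiac fibroblasts Insig1 had the highest mean over all ages, 14.4 CPM per kb (4.49 to 25.2 over 12 samples), followed by Hmgcs1 with 8.77 (4.60 to 11.6). That order did not hold at postnatal day 1, where Insig1 had a mean of 6.16 CPM per kb and Hmgcs1 8.30, with overlapping samples, while at 1.5 years the means were 24.9 and 9.69. Dhcr7 with 2.24 and Fdft1 with 2.11 CPM per kb came next, and their ranges over samples overlapped. In whole hearts the means over all ages were 7.65 CPM per kb for Hmgcs1, 7.30 for Fdft1, and 4.52 for Insig1. The order of the first pair turned with age, from means of 11.3 for Hmgcs1 and 6.14 for Fdft1 at postnatal day 1, with overlapping samples, to 4.28 and 8.13 at 1.5 years, without overlap. Fdps was lowest in both tissues, with 0.127 CPM per kb in fibroblasts and 0.123 in whole hearts. The sequences of Fdps, Idi1, and Fdft1 were in part also those of other annotated genes, with genes that overlap at the same locus included. Of their 65-base windows, 24.3%, 24.3%, and 23.4% also occurred in another annotated gene. The shares were 10.4% for Hmgcs1, 1.43% for Lss, 1.19% for Insig1, 0.76% for Dhcr7, and 0 for Sqle. Fdft1 (chr14:63145150-63179578) overlaps Ctsb on the opposite strand and Fdps (chr3:89093588-89101959) overlaps Gm43738 on its own strand. Also on the opposite strand, Hmgcs1 overlaps Gm48342, Lss overlaps 4930483K19Rik, and Idi1 overlaps Gm48574. The exons of Sqle, Dhcr7, and Insig1 overlap no other annotated gene. The levels of Fdps, Idi1, and Fdft1 are therefore uncertain, and the strand setting of the counting is not given in the sources used here. The part of the overlapping genes in the values of Hmgcs1 and Lss was not tested.

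**Figure D1:**
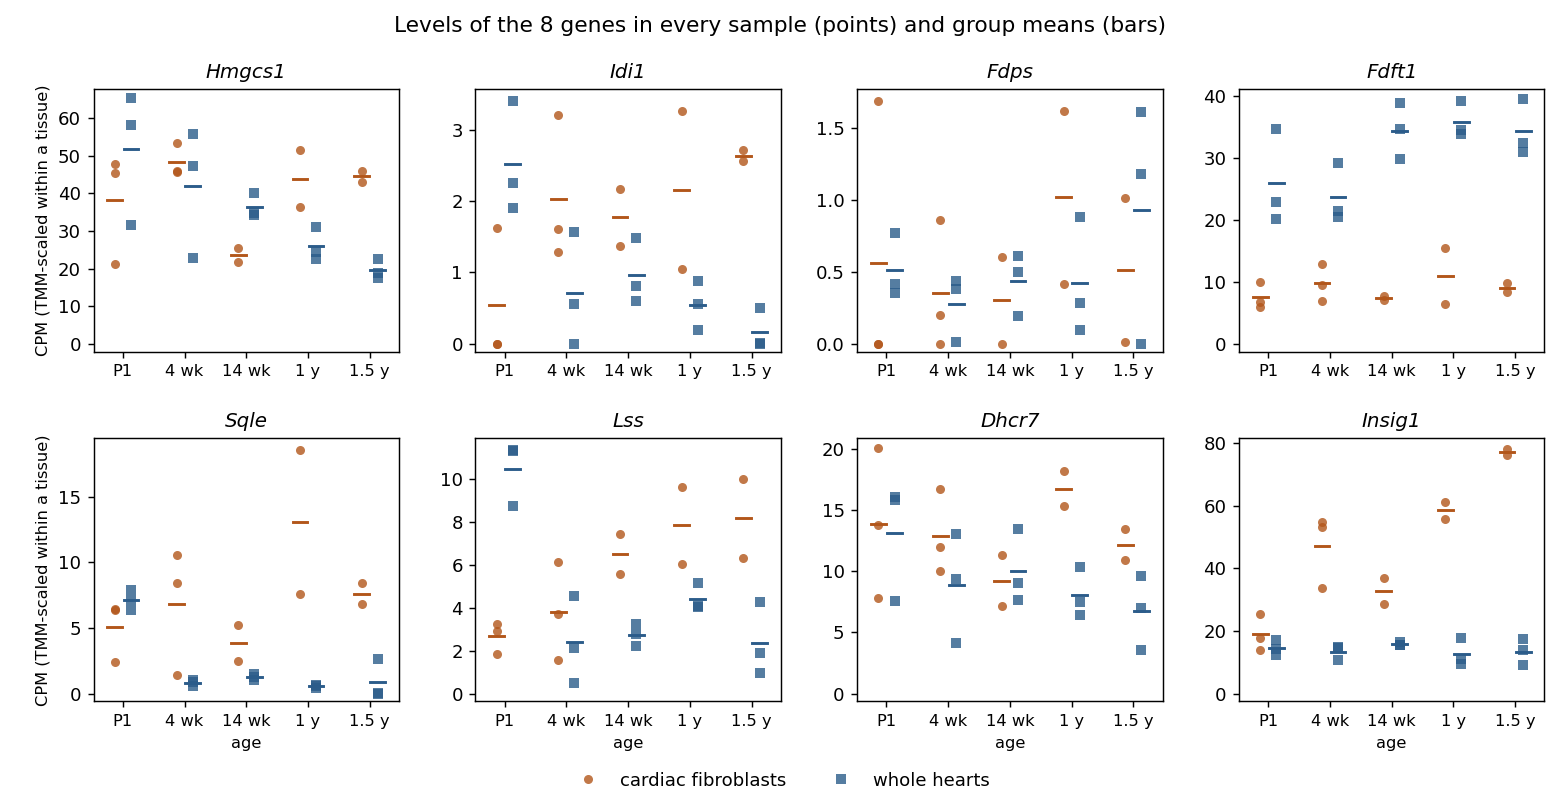
Level of each gene in CPM (vertical axis, TMM-scaled within a tissue, linear from 0) by age (horizontal axis) in every fibroblast sample (circles) and whole heart (squares), with bars at the group means. Insig1 in fibroblasts runs from 13.9 CPM at postnatal day 1 to 78.0 CPM at 1.5 years, while Insig1 in whole hearts stays between 9.0 and 17.6 CPM.

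In cardiac fibroblasts, Insig1 was the only member whose change across the ages was called. Its level was 13.9, 25.5, and 17.8 CPM in the 3 samples of postnatal day 1, 53.1, 33.8, and 54.8 at 4 weeks, 28.6 and 37.0 at 14 weeks, 55.8 and 61.1 at 1 year, and 78.0 and 76.1 at 1.5 years. Every later sample lay above every sample of postnatal day 1, the 14-week samples overlapped those of 4 weeks, and both samples of 1.5 years were the highest of all 12. Over all 5 ages, 1 of the 8 members was called at an adjusted p under 0.05 by edgeR's quasi-likelihood F test (Insig1, adjusted p = 0.000966), where 19.9% of the 18759 genes tested were called. From postnatal day 1 to 4 weeks Insig1 rose by 1.31 on the log2 scale (SE 0.24, adjusted p = 0.00239), the 1 member called of 8 beside 15.5% of all genes. From the first to the last age it rose by 2.02 (SE 0.26, adjusted p = 0.000151), again the 1 member called, beside 16.3% of all genes. Sex and age cannot be told apart between 14 weeks and 1.5 years. At 1.5 years Insig1 was higher than at 14 weeks by 1.23 (SE 0.29, adjusted p = 0.0458), with 2.72% of all genes called. That last call was lost when scaled by library size alone (adjusted p = 0.0713), with an offset for transcript length (adjusted p = 0.0669), and in 8 of the 12 fits that left out 1 sample. Counts on the mitochondrial genome made up 6.15% to 9.18% of the fibroblast total at postnatal day 1, 7.83% in replicate 5 of 1.5 years, and 1.74% to 3.84% in the other later samples, and their part in the Insig1 values was not tested.

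Hmgcs1, the synthase of HMG-CoA, had its lowest fibroblast mean at 14 weeks, but no step passed the threshold. Its level was 21.1, 45.4, and 47.8 CPM at postnatal day 1, 53.2, 45.9, and 45.8 at 4 weeks, 21.8 and 25.5 at 14 weeks, 51.5 and 36.3 at 1 year, and 43.0 and 46.0 at 1.5 years. Both 14-week samples lay below every sample of 4 weeks, 1 year, and 1.5 years, and beside replicate 1 of postnatal day 1. The log2 difference was -1.03 between 14 weeks and 4 weeks (SE 0.30, adjusted p = 0.0896 by edgeR's quasi-likelihood F test) and 0.89 between 1 year and 14 weeks (SE 0.32, adjusted p = 0.234). DESeq2 called the first of these (adjusted p = 0.022). Endothelial markers summed to 2208 and 1959 CPM in the 14-week samples, above 1092 and 1276 at 1 year. They summed to 2673 CPM in replicate 3 of 4 weeks and to 1955 in replicate 5 of 1.5 years, where Hmgcs1 was at 45.8 and 46.0 CPM. The 4 smooth muscle and pericyte markers summed to 235 and 322 CPM at 14 weeks and to 27.4 to 159 at the other ages. The part of these cells, and that of the sexes at each age, in the Hmgcs1 values was not tested.

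Sqle, the squalene epoxidase, varied widely within ages in fibroblasts. It was at 6.47, 6.40, and 2.38 CPM at postnatal day 1, 10.54, 8.41, and 1.45 at 4 weeks, 5.26 and 2.47 at 14 weeks, 18.5 and 7.58 at 1 year, and 8.42 and 6.84 at 1.5 years. The lowest value was that of replicate 3 at 4 weeks, the sample with the highest endothelial marker sum. The samples of 1 year and 1.5 years lay above those of postnatal day 1 and 14 weeks, while those of 4 weeks overlapped every other age. Over all 5 ages Sqle was not called (adjusted p = 0.464, edgeR's quasi-likelihood F test). Lss, the lanosterol synthase, was at 3.26, 2.93, and 1.82 CPM at postnatal day 1, 1.57, 3.72, and 6.13 at 4 weeks, 7.43 and 5.55 at 14 weeks, 9.62 and 6.05 at 1 year, and 6.34 and 10.01 at 1.5 years. Every Lss value from 14 weeks on exceeded every value of postnatal day 1, and the log2 difference at 1.5 years was 1.61 (SE 0.64, adjusted p = 0.116 by edgeR's quasi-likelihood F test). Dhcr7 stayed between 7.15 and 20.1 CPM and Fdft1 between 6.03 and 15.5 CPM. The Dhcr7 values of 1 year lay above those of 14 weeks and 1.5 years. The Fdft1 values of 1.5 years lay above those of 14 weeks, and other ages overlapped in both genes. Idi1 reached at most 3.26 CPM and was at 0 in 2 of the 12 samples, both of postnatal day 1. Fdps reached at most 1.69 CPM and was at 0 in 4 of the 12.

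By edgeR's quasi-likelihood F test no member was called in fibroblasts in the step from 4 to 14 weeks, where 3.87% of all genes were called, in that from 14 weeks to 1 year (1.78%), or in that from 1 year to 1.5 years (0.24%). At an unadjusted p under 0.05 there were 1, 2, and 0 members in these 3 steps, and DESeq2 called 1, 0, and 0.

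In whole hearts, the members whose fall with age was called were Hmgcs1 and Lss. Hmgcs1 was at 31.6, 65.4, and 58.1 CPM at postnatal day 1, 55.8, 22.8, and 47.4 at 4 weeks, 34.7, 40.2, and 34.2 at 14 weeks, 31.1, 24.3, and 22.5 at 1 year, and 22.7, 17.6, and 18.8 at 1.5 years. The group means declined at each step from 51.7 ± 17.8 CPM (SD, n = 3) to 19.7 ± 2.67, and every sample of 1.5 years lay below every sample of postnatal day 1. From the first to the last age Hmgcs1 fell by 1.40 on the log2 scale (SE 0.30, adjusted p = 0.00182, edgeR's quasi-likelihood F test). At 1.5 years against 14 weeks its log2 difference was -0.89 (SE 0.30, adjusted p = 0.0585), which DESeq2 called (adjusted p = 0.0444). In bulk samples, fewer cells of a type and less RNA per cell cannot be told apart.

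Lss in whole hearts fell early and stayed low. It was at 11.3, 11.4, and 8.75 CPM at postnatal day 1, 4.54, 0.509, and 2.12 at 4 weeks, 3.22, 2.21, and 2.78 at 14 weeks, 4.07, 4.03, and 5.13 at 1 year, and 4.28, 0.937, and 1.88 at 1.5 years. Every sample of postnatal day 1 lay above all 12 later samples. Lss fell by 2.13 on the log2 scale to 4 weeks (SE 0.66, adjusted p = 0.0329, edgeR's quasi-likelihood F test) and by 2.15 to 1.5 years (SE 0.66, adjusted p = 0.0205). The 4-week call was lost in 5 of the 15 fits that left out 1 heart, and the 1.5-year call in 4.

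Sqle was not called in whole hearts, where few reads stood behind its later values. It was at 6.36, 7.92, and 7.14 CPM at postnatal day 1, and the 12 later hearts lay between 0 and 2.65 CPM. The later values did not overlap those of postnatal day 1, but the heart with 2.65 CPM was the second of 3 at 1.5 years, beside 0 and 0.0165 CPM in the others. The log2 difference was -3.14 at 4 weeks (SE 1.35, adjusted p = 0.124, edgeR's quasi-likelihood F test) and -3.0 at 1.5 years (SE 1.34, adjusted p = 0.098), both of which DESeq2 called (adjusted p = 0.0332 and 0.033). Idi1 was at 2.25, 1.91, and 3.40 CPM at postnatal day 1 and at 0.497, 0.0159, and 0 at 1.5 years, a log2 difference of -3.87 with an SE of 1.79 (adjusted p = 0.109).

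The other members were not called in whole hearts. Insig1 lay between 9.0 and 17.6 CPM in all 15 hearts. Its 14-week values, 15.5 to 16.4 CPM, lay above those of 4 weeks, 10.8 to 14.8 CPM, and the other ages overlapped. Dhcr7 was at 7.55, 16.1, and 15.9 CPM at postnatal day 1 and 9.64, 7.02, and 3.59 at 1.5 years, a log2 difference of -0.96 (SE 0.45, adjusted p = 0.11 by edgeR's quasi-likelihood F test). Fdft1 was at 34.7, 20.2, and 23.0 CPM at postnatal day 1, 21.5, 29.2, and 20.6 at 4 weeks, and between 29.9 and 39.5 in the 9 older hearts. The 4-week hearts lay below the 9 older hearts in Fdft1, while those of postnatal day 1 overlapped every other age. The log2 difference of Fdft1 at 1.5 years against postnatal day 1 was 0.40 (SE 0.21, adjusted p = 0.161), or -0.18 when scaled by library size alone. Fdps reached at most 1.61 CPM.

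Over all 5 ages, 2 of the 8 members were called in whole hearts (Hmgcs1, adjusted p = 0.00889, and Lss, adjusted p = 0.0325, edgeR's quasi-likelihood F test), and 34.3% of the 17995 genes tested were called. At 4 weeks against postnatal day 1 the count was 1 of 8 beside 18.2% of all genes, and at 1.5 years against postnatal day 1 it was 2 of 8 beside 31.8%, so neither share stood above the background. None of the 8 was called from 4 to 14 weeks (1.61% of all genes called), from 14 weeks to 1 year (0.972%), from 1 year to 1.5 years (2.66%), or from 14 weeks to 1.5 years (12.8%). At an unadjusted p under 0.05 these 4 comparisons held 1, 0, 0, and 1 members, and DESeq2 called 0, 0, 0, and 1. The median log2 change of the 8 members to 1.5 years was -1.18 in whole hearts, where the median of all genes was -0.15, and 0.42 in fibroblasts, where it was 0.

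Other features of the hearts differed with age beside these genes. In whole hearts macrophage and leukocyte markers summed to 37.6 to 41.5 CPM at postnatal day 1 and to 194 to 420 at later ages, proliferation genes to 155 to 219 CPM and to 3.31 to 52.6, cardiomyocyte markers to 36442 to 43550 CPM and to 59389 to 86018, and smooth muscle and pericyte markers to 185 to 213 CPM and to 391 to 828. Counts on the mitochondrial genome made up 10.8% to 13.7% of the total at postnatal day 1 and 14.9% to 34.5% later. Across 12972 genes the log2 change from the first to the last age had a Spearman correlation of -0.39 with combined exon length. Genes of greater exon length thus tended to have lower values at 1.5 years. Lss has the longest exon length of the 8 (10.8 kb), and with an offset for transcript length its change to 1.5 years was -1.55 (adjusted p = 0.0572), while Hmgcs1 kept its call. The part of the other features in the fall of Hmgcs1 and Lss was not tested.

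**Figure D2:**
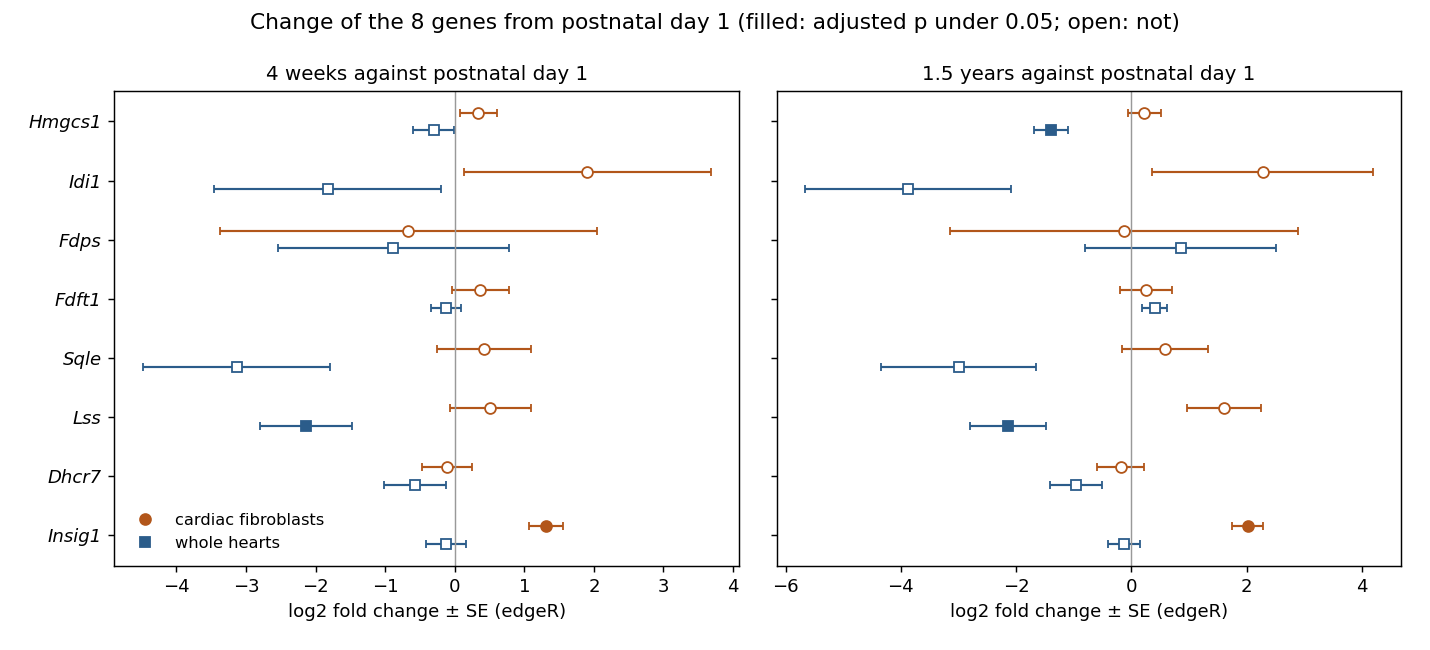
Log2 fold change with its SE (horizontal axis) of each gene at 4 weeks and at 1.5 years against postnatal day 1, in fibroblasts (circles) and whole hearts (squares), filled where the adjusted p was under 0.05. Insig1 is the filled circle in both panels, at 1.31 and 2.02, Lss is a filled square in both, at -2.13 and -2.15, and Hmgcs1 is a filled square at 1.5 years, at -1.40.

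The changes in the 2 tissues were set against each other by an interaction contrast in the fit of 27 samples and 20650 genes. From the first to the last age the change of Insig1 was higher in fibroblasts by 2.12 on the log2 scale (SE 0.41, adjusted p = 0.00116), that of Lss by 3.73 (SE 0.96, adjusted p = 0.0114), and that of Hmgcs1 by 1.59 (SE 0.45, adjusted p = 0.0216), all by edgeR's quasi-likelihood F test. These were 3 of the 8 members, where 13.6% of all genes were called. From postnatal day 1 to 4 weeks the change of Insig1 was higher in fibroblasts by 1.43 (SE 0.39, adjusted p = 0.024), the 1 member called, where 7.14% of all genes were called. The median of all genes in these 2 contrasts was itself above 0, at 0.32 and 0.17. Sqle and Idi1 had interaction values of 3.56 (SE 1.65) and 6.13 (SE 2.73) at 1.5 years that were not called. With 1 sample left out, the Hmgcs1 call was lost in 5 of 27 fits, the Lss call without fibroblast replicate 5 of 1.5 years (adjusted p = 0.0583), and the Insig1 call at 4 weeks in 7 of 27.

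Levels in the 2 tissues were also compared at each age. Fdft1, the squalene synthase, was lower in cardiac fibroblasts at every age, by -2.12, -1.62, -2.56, -2.01, and -2.29 on the log2 scale from the youngest to the oldest age (SE 0.30 to 0.37), and every one of these calls held in all fits that left out 1 sample. At postnatal day 1 Fdft1 stood at a mean of 6.67 CPM in fibroblasts and 29.0 in whole hearts, scaled over both tissues, and at 1.5 years at 8.01 and 39.2. The range over fibroblasts, 6.03 to 15.5 CPM scaled within the tissue, did not meet that of whole hearts, 20.2 to 39.5 CPM. Part of the Fdft1 sequence also occurs in other annotated genes, among them Ctsb, which Fdft1 overlaps on the opposite strand.

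Insig1 was not called between the tissues at postnatal day 1, with a log2 difference of 0.04 (SE 0.27). It was higher in fibroblasts by 1.46 at 4 weeks (SE 0.28), 1.90 at 1 year (SE 0.30), and 2.15 at 1.5 years (SE 0.30), with adjusted p-values of 0.000145, 1.7e-05, and 2.78e-06 by edgeR's quasi-likelihood F test. At 14 weeks the log2 difference was 0.70 (adjusted p = 0.0763). Lss was lower in fibroblasts at postnatal day 1 by -2.32 on the log2 scale (SE 0.66, adjusted p = 0.00874), and its later differences of 0.31 to 1.42 were not called. Sqle was higher in fibroblasts at 1 year by 4.26 (SE 1.30, adjusted p = 0.0125), a call lost without fibroblast replicate 4, the sample at 18.5 CPM (adjusted p = 0.0958). Hmgcs1 was lower in fibroblasts at 14 weeks by -0.97 (SE 0.35, adjusted p = 0.0335), and scaling by library size alone gave -0.30. Idi1, Fdps, and Dhcr7 were called at no age. The members called numbered 2, 2, 2, 3, and 2 of 8 from the youngest to the oldest age, where 32.3%, 36.1%, 34.8%, 32.4%, and 38.9% of all genes were called, so the members' counts lay near the background.

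**Figure D3:**
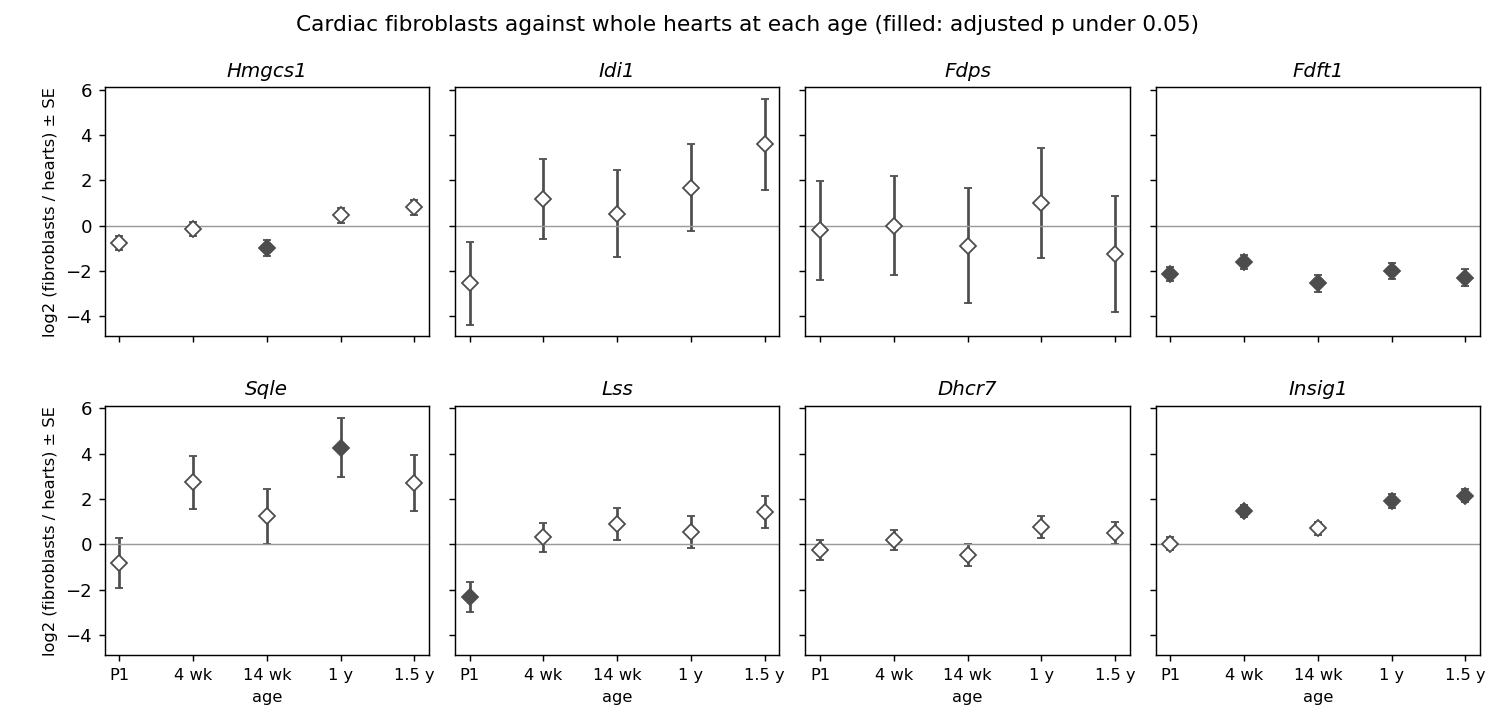
Log2 difference of fibroblasts from whole hearts with its SE (vertical axis) at each age (horizontal axis) for the 8 genes, filled where the adjusted p was under 0.05. Fdft1 is filled and below 0 at all 5 ages, and Insig1 runs from 0.04 at postnatal day 1 to 2.15 at 1.5 years.

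The other enzymes of the pathway were read from a list of 11, all of which were tested. In fibroblasts 2 of the 11 rose from postnatal day 1 to 4 weeks and none fell, beside 15.5% of all genes called, and the median log2 change was 0.71. These were Hsd17b7, a sterol ketoreductase, by 2.12, and Sc5d, a sterol desaturase, by 1.64. At 1.5 years against postnatal day 1 the same 2 rose, by 1.47 and 1.84, and none fell, beside 16.3% of all genes called. Cyp51, the lanosterol demethylase, differed by 0.74 at 4 weeks and by 0.85 at 1.5 years, neither called. It was lower at 14 weeks than at 4 weeks, by -1.45 (adjusted p = 0.0489), and higher at 1 year than at 14 weeks, by 1.87 (adjusted p = 0.0352), and 14 weeks was also the age of the lowest Hmgcs1 mean.

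In whole hearts 1 of the 11 other enzymes fell from postnatal day 1 to 4 weeks and none rose, beside 18.2% of all genes called, and the median log2 change was -0.48. This was Hsd17b7, which had risen in fibroblasts and fell by 1.55 in whole hearts. At 1.5 years against postnatal day 1, Hsd17b7 fell by 2.28 and Cyp51 fell by 0.96, while Ebp, a sterol isomerase, rose by 1.19, which made 3 of the 11 called beside 31.8% of all genes. At 1.5 years against 14 weeks Ebp was higher by 1.21, and Hsd17b7 and Cyp51 were lower by -0.88 and -0.99. The interaction to 1.5 years was 3.72 for Hsd17b7 and 1.78 for Cyp51, both called, and to 4 weeks it was 3.66 for Hsd17b7, also called.

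Among 7 genes that control SREBP2, the factor's own gene moved in opposite directions in the tissues. Srebf2 was at 52.1, 59.4, and 33.5 CPM in fibroblasts at postnatal day 1, 188, 175, and 98.4 at 4 weeks, 93.2 and 112 at 14 weeks, 220 and 167 at 1 year, and 187 and 174 at 1.5 years. In whole hearts it was at 55.7, 59.3, and 65.4 CPM at postnatal day 1 and at 36.5, 36.8, and 31.9 at 1.5 years. All later fibroblast samples lay above those of postnatal day 1, and the hearts of 1.5 years lay below those of postnatal day 1. In fibroblasts Srebf2 rose by 1.67 to 4 weeks (SE 0.25, adjusted p = 0.000594, edgeR's quasi-likelihood F test) and by 1.90 to 1.5 years (SE 0.27, adjusted p = 0.000351). In whole hearts Srebf2 fell by 0.56 (SE 0.14, adjusted p = 0.0106) and by 0.78 (SE 0.14, adjusted p = 0.000566), although with an offset for transcript length the latter was -0.38 (adjusted p = 0.0541). The interaction was 2.24 to 4 weeks and 2.65 to 1.5 years, both called.

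Srebf1, whose product acts mainly on fatty acid genes, rose in fibroblasts by 0.84 to 4 weeks and by 0.83 to 1.5 years. In whole hearts Srebf1 fell by 0.62 to 4 weeks, and it differed by 0.11 at 1.5 years, not called. Insig2, the second INSIG gene, rose by 0.58 in fibroblasts at 4 weeks, differed there by 0.14 at 1.5 years without a call, and rose by 0.62 in whole hearts at 1.5 years. Scap, the escort of SREBP2, differed by 0.33 in fibroblasts at 1.5 years without a call. Mbtps1, a protease that releases SREBP2, fell by 0.64 in whole hearts at 1.5 years, a change that was 0.05 with the offset for transcript length. In all, 3 of these 7 genes rose in fibroblasts at 4 weeks and 2 at 1.5 years with none falling, while in whole hearts 2 fell at 4 weeks, and 2 fell and 1 rose at 1.5 years. Of all genes, 15.5% and 16.3% were called in these fibroblast comparisons and 18.2% and 31.8% in those of whole hearts. The list's median log2 change to 1.5 years was 0.29 in fibroblasts and -0.53 in whole hearts, beside all-gene medians of 0 and -0.15.

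Uptake and transport were read from a list of 7 genes, all of which were tested. Lrp1, a receptor for apolipoprotein E among many ligands, rose in both tissues, in fibroblasts by 1.54 to 4 weeks and 2.14 to 1.5 years and in whole hearts by 1.79 and 1.65. In fibroblasts Npc2, which hands cholesterol out of the lysosome, fell by 0.65 at 4 weeks, and at 1.5 years Lipa, the lysosomal lipase, rose by 0.61. Lrp1 and Npc2 were also higher at 1 year than at 14 weeks, by 0.62 and 0.73. In whole hearts Vldlr rose by 0.90 to 4 weeks and again by 0.93 to 14 weeks, and it was lower by -1.61 at 1.5 years than at 14 weeks. Scarb1, the HDL receptor, fell by 0.90 from 4 to 14 weeks and by 1.28 from the first to the last age in whole hearts, and differed by -0.60 in fibroblasts at 1.5 years without a call. Npc1, whose protein exports cholesterol with NPC2, fell by 0.85 in whole hearts at 1.5 years, a change of -0.13 with the offset for transcript length, and Mylip, a ubiquitin ligase, fell by 0.80. The counts among the 7 were 1 higher and 1 lower in fibroblasts at 4 weeks, 2 and 0 at 1.5 years, 2 and 0 in whole hearts at 4 weeks, and 1 and 3 at 1.5 years. These counts stand beside 15.5%, 16.3%, 18.2%, and 31.8% of all genes called. Their median to 1.5 years was -0.09 in fibroblasts and 0.22 in whole hearts, where the medians of all genes were 0 and -0.15.

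Efflux, storage, and the genes of the oxysterol receptor LXR were read from a list of 8. Nr1h3, which encodes LXRα, rose in both tissues, by 1.13 and 2.73 in fibroblasts and by 2.05 and 3.52 in whole hearts at 4 weeks and 1.5 years against postnatal day 1. Apoe, the apolipoprotein that carries cholesterol from cells, rose by 2.34 in fibroblasts at 1.5 years and by 1.32 and 1.75 in whole hearts. Macrophages express both genes, and in the same hearts the macrophage and leukocyte markers summed to 37.6 to 41.5 CPM at postnatal day 1 and 325 to 420 CPM at 1.5 years. In fibroblasts the same markers summed to 84.1 to 164 CPM at postnatal day 1, 197 to 357 at 4 weeks, and 69.2 to 73.4 at 1.5 years. Their part in these values was not tested. In fibroblasts Cyp27a1, a sterol hydroxylase, rose by 1.47 and 1.79, Ch25h, another sterol hydroxylase, rose by 2.11 at 1.5 years, and Soat1, which esterifies cholesterol for storage, fell by 1.02 and 1.14. In whole hearts Cyp27a1 rose by 0.80 and Soat1 fell by 1.22 at 1.5 years, the latter -0.63 with the offset for transcript length (adjusted p = 0.163). Abca1, the exporter of cholesterol to lipid-poor apolipoprotein, fell by 1.43 in whole hearts at 1.5 years and differed by -0.22 in fibroblasts, not called. Abcg1, which exports to HDL, was called in neither tissue at 1.5 years, with 0.48 in fibroblasts and -0.73 in whole hearts. Of the 8, 4 rose and 1 fell in fibroblasts from the first to the last age (median 1.13), beside 16.3% of all genes called, and 3 rose and 2 fell in whole hearts (median 0.58), beside 31.8%.

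**Figure D4:**
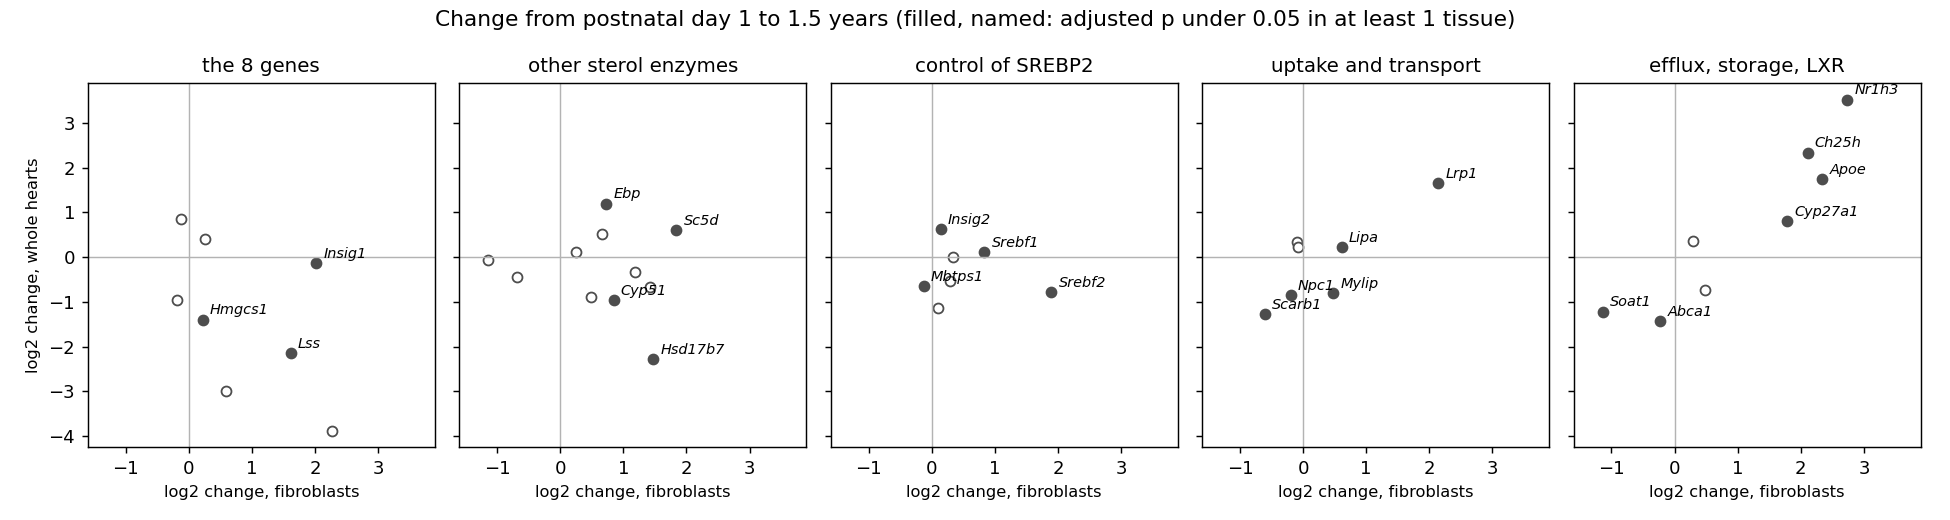
Log2 change from the first to the last age in fibroblasts (horizontal axis) and whole hearts (vertical axis) for the 8 genes and the 4 lists of the pathway, filled and named where the adjusted p was under 0.05 in at least 1 tissue. Srebf2 (1.90 and -0.78) and Hsd17b7 (1.47 and -2.28) lie to the lower right, and Nr1h3 (2.73 and 3.52) and Lrp1 (2.14 and 1.65) to the upper right.

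How the members varied together was described by correlation over samples. Against the mean of the other 7 members (z-scored log2 CPM), Pearson's r over the 15 hearts was 0.87 for Idi1, 0.79 for Dhcr7, 0.71 for Lss, and 0.66 for Hmgcs1, and it was -0.50 for Fdft1. Over the 12 fibroblast samples r was highest for Insig1 at 0.68 and Fdft1 at 0.62 and lowest for Fdps at 0.18. These values are descriptions over samples that share ages, tissue, and depth. By the same measure, genes of at least 10 CPM with a pattern like the mean of the 8 members in fibroblasts included Fcgrt (r = 0.945), Tmbim6 (0.940), Yif1b (0.921), and Naglu (0.912) among 8816 genes. In whole hearts the 5 most like were Rev3l (0.946), Zdhhc21 (0.937), Adam10 (0.934), Ccnt1 (0.931), and Zfp644 (0.930) among 8482.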

How the data were processed

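Gene expression was measured by RNA-Seq of polyA RNA in 12 samples of cardiac fibroblasts and 15 whole hearts. The authors mapped single-end reads of 65 bases to mm10 with STAR 2.5.3a (also in the submitters' processing notes) and counted reads per gene with its GeneCounts option, and the raw counts were deposited as they were, with no scaling. The annotation release and the strand setting are not given in the sources used here. All deposited counts were whole, and identical columns were found in 0 of the 24 pairs within a tissue and age.

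Each tissue was fitted with edgeR 4.0.16 in R 4.3.3 (filterByExpr, TMM, quasi-likelihood F test, age as the only factor), and the tissues were compared in 1 fit of all 27 samples. Genes were called at a Benjamini-Hochberg adjusted p under 0.05 over all genes tested. Levels are CPM scaled by TMM within a tissue, and each SE was derived from the log2 fold change and its F statistic. Correlations used log2(CPM + 0.1). The tests were checked on simulated data. Depth limits genes of few counts, and counting error alone leaves a gene with 0 counts below 3 counts of its library.

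The members and gene lists were chosen with earlier results of these data known. Named are the 8 members, fixed pathway genes (Cyp51, Srebf2, Srebf1, Scap, Insig2, Scarb1, Abca1, Abcg1, and Mki67), and in each list the 2 called genes with the lowest adjusted p in each direction. Some genes of the lists are not reported here and were left out of the lists' counts and medians. Lipa, Apoe, and Ch25h in fibroblasts and Cyp27a1 and Mylip in whole hearts, from the first to the last age, were named after their values were seen. Of the proliferation list, Mki67 fell by 5.65 in fibroblasts and by 5.43 in whole hearts from the first to the last age. Coordinates and exon lengths came from GENCODE M21 (GRCm38), which held 21796 of the 22855 symbols (95.4%), and promoters from RefSeq, with entries for 5 of the 8 members. Of 5 fat-cell markers only Adipoq was analysed, at 0 to 1.99 CPM.

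Alternatives were DESeq2 1.42.0, median-of-ratios size factors, library size alone, no filter, at least 10 counts in every sample, a 2-fold minimum, fits of 2 ages alone, a block for replicate number, each sample left out, and, chosen after seeing the data, an offset for transcript length. Tables and plots were made with pandas 2.3.3, numpy 2.4.6, and matplotlib 3.10.9 in python 3.11.15.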

Additional observations from a re-analysis of the deposited data

Results flagged for a closer look

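For 4 results of the 8 genes, the change from postnatal day 1 differed between cardiac fibroblasts and whole hearts by the interaction test over all samples (edgeR's quasi-likelihood F test). To 1.5 years these were Insig1, with a difference of 2.12 on the log2 scale, Lss, with 3.73, and Hmgcs1, with 1.59. To 4 weeks it was Insig1, with 1.43. In fibroblasts Insig1 rose by 2.02 and in whole hearts its change was -0.13. Hmgcs1 and Lss fell by 1.40 and by 2.15 in whole hearts, beside 0.22 and 1.61 in fibroblasts, which were not called there. No group had more than 3 samples, so single samples could not be tested as outliers.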

How the results depend on the processing

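The direction of Insig1 in fibroblasts, of Hmgcs1 and Lss in whole hearts from the first to the last age, and of Fdft1 between tissues held under all alternatives run. The numbers of members called changed as follows, and the cause was not tested. Scaled by library size alone, 0 were called in fibroblasts from 14 weeks to 1.5 years, 4 in whole hearts over all ages, 3 to 4 weeks, and 4 to 1.5 years, 3, 3, and 4 between tissues at postnatal day 1, 4 weeks, and 1.5 years, and 2 in the interaction to 4 weeks. With at least 10 counts in every sample, 1 was called in fibroblasts from 4 to 14 weeks, 2 to 1.5 years, 3 and 2 between tissues at postnatal day 1 and 1 year, and 2 in the interaction to 4 weeks. DESeq2 called 1 and 2 in the same fibroblast comparisons, 3 in whole hearts over all ages, 2 to 4 weeks, 1 from 14 weeks to 1.5 years, and 4 to 1.5 years, 3 between tissues at 4 weeks and at 1.5 years, and 2 in the interaction to 4 weeks. With no filter, 3 were called between tissues at 1.5 years. With only the 2 ages in the fit, fibroblasts had 1 from 4 to 14 weeks, 2 from 14 weeks to 1 year, and 2 from 14 weeks to 1.5 years, and whole hearts 1 from 14 weeks to 1.5 years. The offset for transcript length, chosen after seeing the data, left 0 in fibroblasts from 14 weeks to 1.5 years, 1 in whole hearts to 1.5 years, and 3 between tissues at 14 weeks.

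With 1 sample left out, members called in fibroblasts ran from 1 to 2 over all ages and to 4 weeks, 0 to 1 from 4 to 14 weeks, 0 to 1 in the next step to 1 year, 0 from 1 year to 1.5 years, 0 to 2 from 14 weeks to 1.5 years, and 1 to 2 to 1.5 years. In whole hearts they ran from 1 to 3 over all ages, 0 to 2 to 4 weeks, 0 to 1 from 14 weeks or 1 year to 1.5 years, and 1 to 3 to 1.5 years. Between tissues they ran from 2 to 4, 2 to 3, 1 to 3, 2 to 3, and 2 to 5 by age, and the interactions from 0 to 2 and from 1 to 4. An arm left with 1 sample was assumed to vary like the others. Of values that were not called, Abca1 in fibroblasts at 1.5 years ran from -0.43 to 0.13, Scarb1 from -2.22 to 0.14, and Insig2 from -0.032 to 0.29. By library size, Insig2 in fibroblasts was -0.069, and Srebf1 and Fdft1 in whole hearts at 1.5 years were -0.49 and -0.18. With the length offset, Mbtps1 in whole hearts was 0.051.

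Within a tissue, same-numbered samples of other ages had correlations of -0.053 to 0.127 in fibroblasts (7 pairs) and -0.127 to 0.220 in whole hearts (30 pairs). Whether a fibroblast sample and the heart of the same age and number varied together was not examined. With the replicate block, 0 members were called in fibroblasts from 14 weeks to 1.5 years, and the block could not be estimated in fibroblasts between the youngest 2 ages and the others. The other counts of members were the same with the block wherever it was fitted, which between tissues was at postnatal day 1 and 4 weeks, since older fibroblast samples share no number with the hearts.

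Library size moved the median of all genes by -0.51 to 4 weeks and -0.60 to 1.5 years in whole hearts, by -0.15 in fibroblasts to 1.5 years, by 0.66 between tissues at 14 weeks, and by 0.43 and 0.41 in the interactions. Genes called in fibroblasts numbered 726 from 4 to 14 weeks (DESeq2 1533), 334 from 14 weeks to 1 year (10-count filter 569, DESeq2 1013, 2 ages 2004, block 0), 45 from 1 year to 1.5 years (no filter 74, 10-count filter 79, DESeq2 321, block 14), 511 from 14 weeks to 1.5 years (808, DESeq2 1259, 2 ages 818, block 20), and 3061 to 1.5 years (2 ages 2030). In whole hearts they numbered 289 from 4 to 14 weeks (library size 496, DESeq2 803), 175 from 14 weeks to 1 year (library size 87, 10-count filter 342, DESeq2 856, 2 ages 1458, block 45, length offset 281), 478 from 1 year to 1.5 years (309, 871, 1748, 35, 265, and 258), and 2298 from 14 weeks to 1.5 years (length offset 1185). The interaction to 4 weeks had 1475 (DESeq2 2874). Few reads limit Fdps, Idi1, and Sqle in whole hearts.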
